A study of Mus musculus with 4 samples.

Results

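Cholesterol synthesis and lipid handling genes were examined as a set of 35 mouse genes, chosen by symbol from the 55367 gene rows of each count table. They cover the enzymes that build cholesterol and fatty acids, the SREBP factors that control those enzymes, and the genes by which a cell exports, stores, binds or burns lipid. The tables came from 4 libraries, WT 1, WT 2, KO 1 and KO 2, made from mRNA of cells sorted out of B16-F10 tumors (B16-F10 is a melanoma line of the mouse). The labels name the cells CD45.2+, a mark of blood-derived cells, and their protocol sorts for CD8, a mark of cytotoxic T cells, as well. WT and KO are the only names the libraries carry. The series concerns loss of Satb1 and names floxed Satb1 mice with ThPOK-cre, active in the CD4 lineage, or E8I-cre, active in the CD8 lineage, but which driver the KO libraries carry was not given. The methods describe adult mice of mixed sexes and C57BL/6 hosts for subcutaneous tumors, and neither the age and sex behind a library nor any pooling of animals was given. Since nothing says that the libraries of a group came from separate animals, p-values measure only the spread between these libraries, which may be technical. Of the 35 genes, 33 passed the filter on low counts and were tested. Fdps and Scd1 did not. The 14 sterol enzymes, the 5 fatty acid synthesis genes and Insig1 are called the 20 SREBP targets below, and the 4 LXR and efflux genes with the 6 PPAR and fatty acid handling genes the 10 LXR and PPAR genes. Srebf1, Srebf2, Scap, Soat1 and Ch25h belong to neither class.

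Cells make cholesterol from acetyl-CoA through mevalonate and squalene. When sterols in the endoplasmic reticulum run low, SCAP escorts the SREBP proteins to the Golgi apparatus, where they are cut and freed to switch on these enzymes, and INSIG1 holds the complex back when sterols are plentiful. Oxidized sterols and intermediates of the pathway instead activate the liver X receptors (LXR), which induce the sterol exporters ABCA1 and ABCG1, while fatty acids activate the PPAR receptors, which induce lipid droplet and fatty acid binding proteins. Proliferating lymphocytes and tumor cells are known for high sterol and fatty acid synthesis, and lipid-loaded macrophages for high LXR and PPAR activity.

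The libraries held 4017875 to 5382915 counts on genes, and 3 counts corresponded to 0.524 to 0.902 normalized CPM (reads scaled by library total and TMM factor). The targeted gene, taken per library, went against the labels. In KO 1 and KO 2 Satb1 reached 131 and 55 reads, whereas WT 1 and WT 2 held 7 and 5 (log2 fold change 3.36, 95% interval 1.59 to 5.13, edgeR adjusted p = 0.115), so WT and KO below mean only the libraries labeled so. Xist had 435 and 216 counts against 0 and 3, and 4 Y-linked genes together had 0 and 0 against 416 and 255, so sex and group cannot be told apart. Despite the CD8 sort, the 10 T cell markers summed to 91.4 and 128 normalized CPM in WT and 2148 and 1239 in KO, whereas the 13 macrophage or monocyte markers summed to 32451 and 39181 in WT and 19192 and 25909 in KO. Per 1000 CPM of the T cell markers, Satb1 was 23.0 and 9.69 in WT and 11.6 and 7.75 in KO, and the groups overlapped. The part of T cell content in the Satb1 values was not otherwise tested. The macrophage or monocyte sum exceeded the T cell sum in every library. In bulk samples fewer cells of a type and less RNA per cell cannot be told apart.

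By the sign of the fitted log2 fold change, 14 of 18 SREBP targets were higher in the libraries labeled KO and 9 of 10 LXR and PPAR genes lower. Of all 11837 genes tested, 52.6% were higher. The members and lists were chosen with earlier results of these data known, and the difference between the classes was not tested. None of the 33 tested genes passed an adjusted p of 0.05 in the edgeR quasi-likelihood test, where 0.574% of all 11837 genes tested passed, 0.549% higher in KO and 0.0253% lower. At an unadjusted p under 0.05 there were 9 of the 33, namely 3 higher in KO (Hmgcs1, Idi1 and Fasn) where 9.44% of all genes were, and 6 lower (Abcg1, Nr1h3, Pparg, Fabp4, Fabp5 and Ch25h) where 4.23% were. DESeq2 called 3 of them at an adjusted p of 0.05, all lower in KO (Nr1h3, Fabp4 and Abcg1), where 0.46% of its genes were called lower and 2.28% higher.

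Of the 18 SREBP targets tested, 14 had a positive log2 fold change of KO against WT, against 52.6% of all genes tested. Their median was 0.79, beside a median of 0.051 over all genes tested. In 18 of the 33 genes the groups did not overlap, against 47.9% of all genes. In 8 of the 18 SREBP targets both KO libraries lay above both WT libraries, against 25.3% of all genes, and in 2, Mvk and Fdft1, both lay below, against 22.6%. Of the 10 LXR and PPAR genes, 9 had a negative log2 fold change, where 5610 of all 11837 genes tested did, and the median was -1.24. In 6 of the 10 both KO libraries lay below both WT libraries, against 22.6% of all genes, and in 0 above, against 25.3%. At an unadjusted edgeR p under 0.05, 5 of the 10 were lower, against 4.23% of all genes. The LXR and PPAR median rested partly on single libraries, with -0.66 without WT 1 and -1.94 without KO 2, and that of the SREBP targets was 0.39 without WT 1 and 0.54 without KO 1.

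How many of the 33 genes passed depended on the fit. It was 0 with RLE factors, where 0.524% of all genes were called higher and 0.0253% lower, and 0 with upper-quartile factors (0.482% and 0.0253%). Testing every gene with a count called 3 (Fasn, Nr1h3 and Fabp4), where 2.38% of genes were higher and 0.367% lower. A replicate block called Nr1h3 alone (1.7% and 0.118%). Leaving out WT 2 called 4 (Idi1, Sc5d, Nr1h3 and Fabp4, against 1.54% and 0.19%) and leaving out KO 2 called 6 (Hmgcs1, Abca1, Abcg1, Nr1h3, Plin2 and Ch25h, against 5.64% and 4.07%), while leaving out WT 1 (0.809% and 0.0534%) or KO 1 (0.803% and 0.195%) called 0. A crossed block, chosen after seeing the data, called 8 (4.52% and 0.946%). Nr1h3 was in each of these sets that held any gene.

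**Figure D1:**
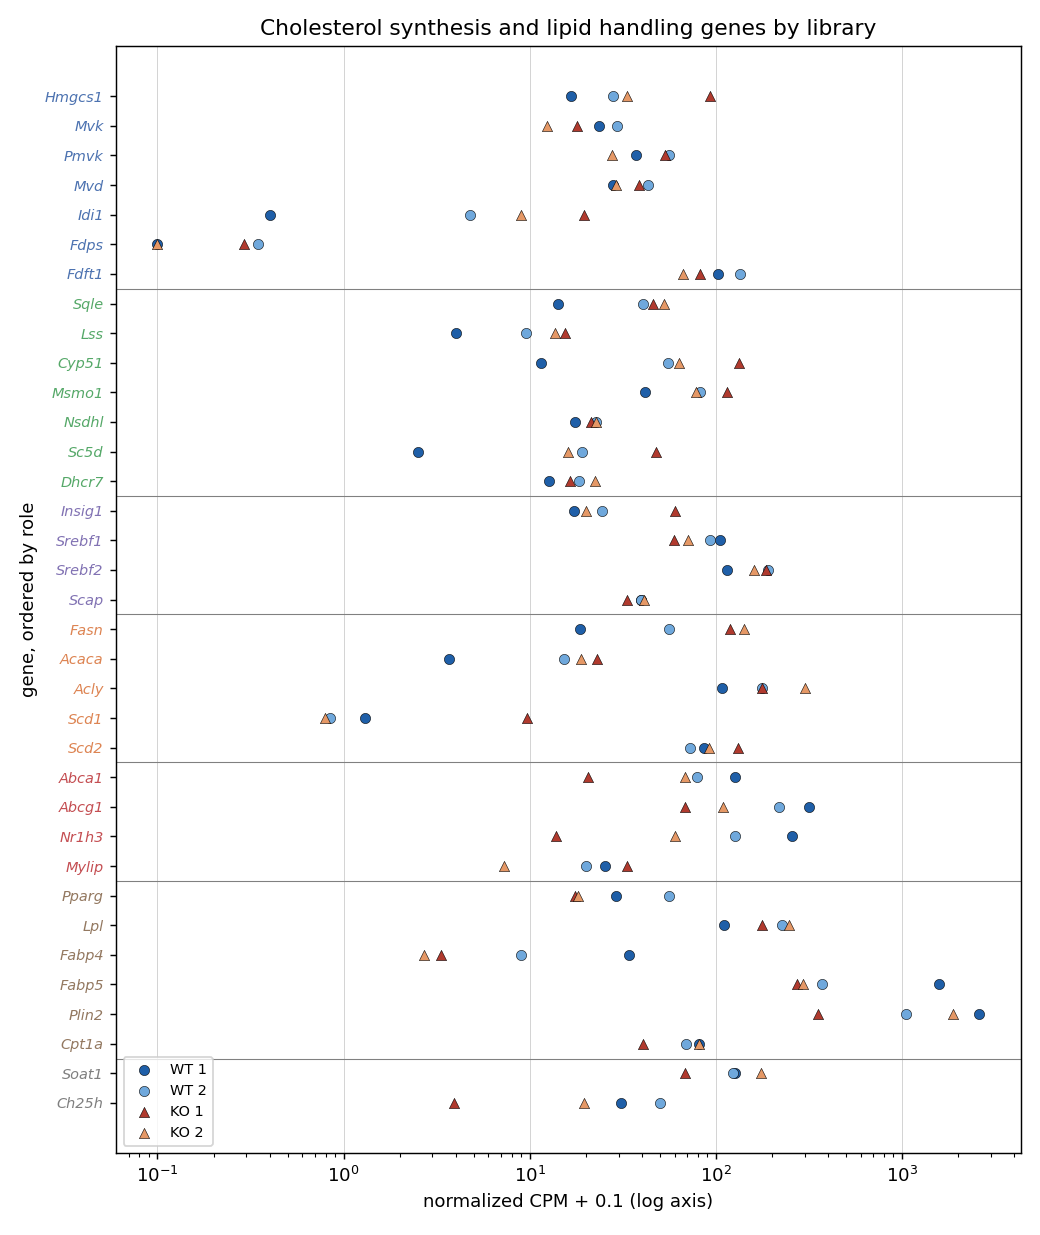
Normalized CPM plus 0.1 (log axis) of all 35 genes, ordered by role from mevalonate enzymes at the top to sterol esterification and oxysterol genes at the bottom, with each point 1 library (circles WT, triangles KO). In 8 tested genes, such as Fasn and Lss, both triangles lie to the right of both circles, and in 10, such as Nr1h3 and Fabp4, both lie to the left.

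Per length of exon, Plin2, which coats lipid droplets, had the highest level of the 35 genes in both groups, with a mean of 522 normalized CPM per kilobase in WT and 317 in KO, and Fabp5, a fatty acid carrier, came next with 273 and 79.3. Nr1h3, which encodes LXR-alpha, held rank 3 in WT with 75.9 per kilobase and rank 12 in KO with 14.8. Rank 3 in KO went to Acly, which makes cytosolic acetyl-CoA, with 45.3 against 27.0 in WT. The sterol enzymes tested ranged from 0.617 (Lss) to 27.9 (Fdft1) per kilobase in WT. Cyp51 held rank 20 in WT and rank 6 in KO, and Fasn rank 28 and rank 17. Plin2 lay above Fabp5 in each of the 4 libraries, and both varied widely between libraries of 1 group. Genes from rank 6 to rank 8 in WT, Fdft1, Pmvk and Acly, lay closer together than the WT libraries of Acly did.

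In the steps from acetyl units to squalene the members parted. Hmgcs1 (chromosome 13, 119690379 to 119708260 of GRCm38/mm10), which makes the substrate of the rate-limiting reductase, had 16.5 and 28.0 normalized CPM in WT and 92.7 and 33.3 in KO (log2 fold change 1.50, SE 0.58, 95% interval 0.19 to 2.80, edgeR adjusted p = 0.301). Both KO libraries were above both WT libraries, and KO 1 was the highest by far. Without KO 1 the log2 fold change was 0.57, and without KO 2 it was 2.01 (edgeR adjusted p = 0.0175). Idi1, the isomerase that makes the activated isoprene unit, had 0.301 and 4.71 in WT and 19.4 and 8.90 in KO (log2 fold change 2.45, SE 0.98, 95% interval 0.24 to 4.66, edgeR adjusted p = 0.317). The WT 1 value is 1 read. The log2 fold change was 1.51 without WT 1 and 1.77 without KO 1, and without WT 2 it was 5.38, which rests on that single read and the prior count. Mvk, mevalonate kinase, lay the other way with 23.4 and 29.5 against 17.9 and 12.2 (log2 fold change -0.81, 95% interval -1.95 to 0.32, edgeR adjusted p = 0.501), as did Fdft1, squalene synthase, with 102 and 134 against 82.0 and 66.1 (log2 fold change -0.67, 95% interval -1.62 to 0.27, edgeR adjusted p = 0.504). In both, the KO libraries lay below the WT libraries. Of the exonic bases of Fdft1, 18.3% are shared with the protease gene Ctsb on the other strand, and of those of Hmgcs1 12.1% with Gm48342. Pmvk and Mvd, the next kinase and the decarboxylase, overlapped between groups, with log2 fold changes of -0.20 and -0.070.

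Fdps, farnesyl diphosphate synthase, was all but unread, with 1 read in WT 2, 1 in KO 1 and 0 in the other libraries. Of its 4208 exonic bases 26.7%, and of its 1308 coding bases 1124 (85.9%), also lie in exons of Gm43738, an overlapping gene on the same strand, and reads in bases that belong to more than 1 gene are set aside as ambiguous by HTSeq in its default mode. How far this lowered the count was not tested, and no level of Fdps was read from it.

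The 7 enzymes from squalene to cholesterol all had positive log2 fold changes, from 0.13 to 1.55 with a median of 0.84, and 0 of 7 passed the threshold (edgeR adjusted p from 0.373 to 0.929). Sc5d, the sterol desaturase, had 2.40 and 19.1 normalized CPM in WT and 47.8 and 16.1 in KO (log2 fold change 1.55, SE 0.86, 95% interval -0.39 to 3.50, edgeR adjusted p = 0.457). Its groups overlapped, since WT 2 was above KO 2, and the low value was WT 1. Cyp51, which removes a methyl group from lanosterol, had 11.4 and 55.2 against 132 and 63.2 (log2 fold change 1.55, SE 0.70, 95% interval -0.027 to 3.12, edgeR adjusted p = 0.373), where KO 2 was only a little above WT 2. Lss, which closes squalene epoxide into lanosterol, had 3.91 and 9.41 against 15.4 and 13.6 (log2 fold change 1.11, 95% interval -0.33 to 2.56, edgeR adjusted p = 0.472). Sqle, which makes that epoxide, had 14.1 and 40.6 against 45.7 and 52.9 (log2 fold change 0.84). In Lss, Sqle and Cyp51 the groups did not overlap. Msmo1, a methyl oxidase, had 41.8 and 82.5 against 114 and 78.0, and its groups overlapped, as did those of Nsdhl and Dhcr7, whose log2 fold changes were 0.13 and 0.32. WT 1 was the lowest library in all 7 enzymes. Without WT 1 the log2 fold changes were 0.23 for Sqle, 0.56 for Lss, 0.75 for Cyp51 and 0.66 for Sc5d. They were 0.16 for Msmo1, 0.029 for Dhcr7 and -0.096 for Nsdhl, which turned negative. Without WT 2 they were 1.75 for Sqle, 1.83 for Lss, 3.03 for Cyp51 and 3.65 for Sc5d. For Msmo1, Dhcr7 and Nsdhl they were then 1.14, 0.57 and 0.28. Without KO 1 they were 0.91 for Cyp51, 0.55 for Sc5d and 0.32 for Msmo1, and without KO 2 that of Dhcr7 was 0.040.

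Of the 4 genes around SREBP itself, 0 passed the threshold. Srebf2, the factor of the sterol enzymes, had 114 and 190.5 normalized CPM in WT and 186 and 159.5 in KO (log2 fold change 0.18, 95% interval -0.83 to 1.19, edgeR adjusted p = 0.892), and Scap had 39.4 and 39.6 against 33.3 and 41.2 (log2 fold change -0.085). For both genes the groups overlapped. Srebf1, the factor of fatty acid synthesis and itself induced by LXR, had 106 and 93.1 against 59.7 and 70.9 (log2 fold change -0.60, 95% interval -1.53 to 0.32, edgeR adjusted p = 0.540), with both KO libraries below both WT libraries. Insig1, a feedback target of SREBP, had 17.1 and 24.3 against 60.1 and 19.9 (log2 fold change 0.95, 95% interval -0.37 to 2.27, edgeR adjusted p = 0.501). The difference was that of KO 1 alone, since KO 2 lay between the WT libraries, and without KO 1 the log2 fold change was -0.066.

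Among the fatty acid synthesis genes, Fasn, the synthase that makes palmitate, had the lowest unadjusted p of all SREBP targets. It had 18.6 and 56.0 normalized CPM in WT and 119 and 141 in KO (log2 fold change 1.80, SE 0.56, 95% interval 0.55 to 3.05, edgeR adjusted p = 0.218). Both KO libraries lay above both WT libraries, and WT 1 was lowest. Its log2 fold change lay between 1.16 and 2.76 over the alternatives, the lowest without WT 1 and the highest without WT 2. Fasn passed when every gene with a count was tested (edgeR adjusted p = 0.0340). It also passed with the crossed block, chosen after seeing the data (edgeR adjusted p = 0.0103). It did not pass in DESeq2 (adjusted p = 0.0612) or with a replicate block (edgeR adjusted p = 0.0827). Acaca, which supplies malonyl-CoA to Fasn, had 3.61 and 15.1 against 22.8 and 18.7 (log2 fold change 1.14, 95% interval -0.41 to 2.68, edgeR adjusted p = 0.493) without overlap, and its log2 fold change was 0.40 without WT 1 and 2.46 without WT 2. Acly had 108 and 177 against 176 and 302 (log2 fold change 0.75, 0.39 without WT 1 and 0.27 without KO 2), where WT 2 and KO 1 were nearly equal and KO 2 was highest. Scd2, a desaturase, had 86.3 and 72.3 against 132 and 92.0 (log2 fold change 0.50, 0.32 without WT 2 and 0.21 without KO 1). The related Scd1 had 4 and 3 counts in WT and 50 and 4 in KO, so that its reads came almost only from KO 1. With 4 of 4 tested genes positive, the median of the group was 0.94.

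**Figure D2:**
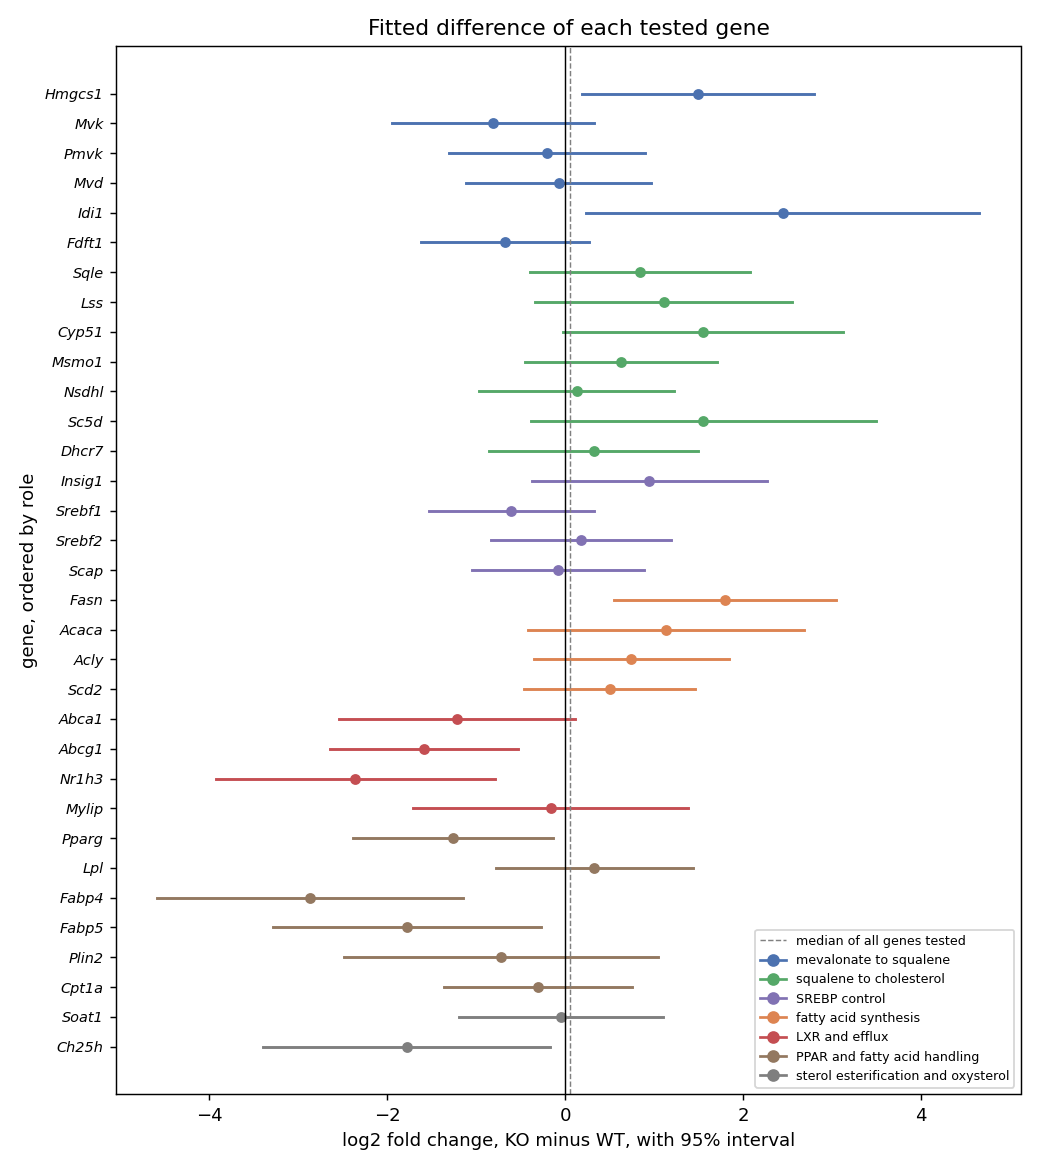
Fitted log2 fold change of KO against WT (points) with its 95% interval (lines) for the 33 tested genes, colored by role, with the median of all genes tested dashed. The sterol and fatty acid synthesis genes lie mostly right of 0 and the LXR and PPAR genes mostly left, with intervals that exclude 0 in 9 genes.

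On the LXR side, Nr1h3 had 256 and 126 normalized CPM in WT and 13.7 and 60.6 in KO (log2 fold change -2.36, SE 0.70, 95% interval -3.93 to -0.79, edgeR adjusted p = 0.193). Both KO libraries lay below both WT libraries, and KO 1 was lowest. The call depended on the method: the adjusted p was 0.0187 in DESeq2, 0.00130 in edgeR with every gene tested and 0.0463 in edgeR with a replicate block. In edgeR with upper-quartile factors it was 0.202, and with the crossed block, chosen after seeing the data, 0.000259. The log2 fold change was -1.66 without KO 1 and -3.83 without KO 2. Abcg1, which exports sterols to lipoproteins, had 317 and 218 against 68.5 and 109 (log2 fold change -1.59, SE 0.47, 95% interval -2.65 to -0.53, edgeR adjusted p = 0.194), and DESeq2 gave an adjusted p of 0.0426, with a range over the alternatives from 0.0156 to 1.0. Abca1, the other exporter, had 127 and 79.3 against 20.4 and 68.1 (log2 fold change -1.22, SE 0.59, 95% interval -2.55 to 0.11, edgeR adjusted p = 0.403). Its WT 2 and KO 2 values were close to each other, and the log2 fold change was -0.60 without KO 1 and -2.37 without KO 2. Mylip, an LXR target whose product marks lipoprotein receptors for breakdown, had 25.2 and 20.1 against 33.3 and 7.16 (log2 fold change -0.16), so that the KO libraries lay on either side of the WT libraries.

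Of the PPAR and fatty acid genes, Fabp4, the fatty acid carrier of macrophages, capillaries and fat cells, had the largest fitted log2 fold change of the 33 genes with all 4 libraries and no block. Idi1 exceeded it with the replicate block, the crossed block, without WT 2 and without KO 2, Nr1h3 with both blocks and without WT 1 or KO 2, Ch25h without WT 1 or KO 2, Pparg without WT 1 and Sc5d without WT 2. Fabp4 had 34.3 and 8.92 normalized CPM in WT and 3.23 and 2.62 in KO, from 114, 36, 17 and 15 counts (log2 fold change -2.87, SE 0.76, 95% interval -4.58 to -1.15, edgeR adjusted p = 0.157). The KO libraries were alike and low, and WT 1 was 34.3 where WT 2 was 8.92. The adjusted p was 0.0275 in DESeq2, with a range over the alternatives from 0.00385 to 1.0, and without WT 1 the log2 fold change was -1.66. Its neighbor in the family, Fabp5, had 1572 and 373 against 271 and 294 (log2 fold change -1.78, SE 0.67, 95% interval -3.29 to -0.27, edgeR adjusted p = 0.292). Here WT 1 stood far above the other 3 libraries, and without WT 1 the log2 fold change was -0.45. Pparg, the receptor gene, had 28.9 and 56.2 against 17.3 and 18.1 (log2 fold change -1.26, SE 0.50, 95% interval -2.39 to -0.14, edgeR adjusted p = 0.310). Its KO libraries were both below WT, and without WT 2 the log2 fold change was -0.75.

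Plin2 had 2608 and 1056 normalized CPM in WT and 354 and 1871 in KO (log2 fold change -0.72, 95% interval -2.48 to 1.04, edgeR adjusted p = 0.722). KO 1 was lowest and KO 2 lay between the WT libraries, so the groups overlapped, and the log2 fold change was 0.026 without KO 1 and -2.41 without KO 2. Over all 4 libraries Lpl, the lipase that frees fatty acids from lipoproteins, was the only LXR and PPAR gene with a positive log2 fold change. It was 0.33, from 111 and 225 against 177 and 246. Without WT 1 the log2 fold change was -0.14 for Lpl and 0.047 for Plin2. It was 0.10 for Cpt1a without KO 1 and 0.52 for Mylip without KO 2. Cpt1a, the gate of mitochondrial fatty acid oxidation, had 80.9 and 69.1 against 40.5 and 80.6 (log2 fold change -0.31). For Lpl and Cpt1a the groups overlapped.

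Ch25h, which makes 25-hydroxycholesterol, an oxysterol that restrains SREBP processing and activates LXR, had 30.7 and 50.0 normalized CPM in WT and 3.81 and 19.5 in KO (log2 fold change -1.78, SE 0.72, 95% interval -3.40 to -0.17, edgeR adjusted p = 0.317). Both KO libraries lay below both WT libraries, and the log2 fold change was -1.05 without KO 1 and -3.44 without KO 2. Of its exonic bases, 11.5% are shared with Gm26902 on the other strand. Soat1, which esterifies cholesterol for storage, had 127 and 124 against 68.5 and 175 (log2 fold change -0.043), with KO 1 below and KO 2 above both WT libraries.

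Promoters were read for motifs, since SREBP and LXR act through known elements there. RefSeq promoters on GRCm38.p6 matched 26 of the 35 genes, and the 250 bases before each start were searched on both strands. The strict sterol element TCACNCCAC was found in 1 of the 26 (Hmgcs1), where 1.22% of all 27025 genes with a promoter held it. The LXR type of direct repeat, searched as GGTNA and GGTNA with 5 bases of any kind between them, was found in 3 of the 26 (Abca1, Srebf1 and Fasn), against 0.707% of all genes. CCAAT, the box of the SREBP partner NF-Y, was in 13 of 15 SREBP targets and 4 of 6 LXR and PPAR genes, against 37.5% of all genes, and GGGCGG, the Sp1 box, in 12 and 4, against 35.4%. CACGTG, an E-box, was in 5 of the 26, against 6.86%. A match describes the letters and shows no binding. The stretches that hold the sterol element and the 3 repeats are shown 5′ to 3′ on the strand of the gene, with the motif in capitals. The 3 repeats read as GGTNA on the opposite strand.
Hmgcs1 (chr13:119690169-119690267, plus strand): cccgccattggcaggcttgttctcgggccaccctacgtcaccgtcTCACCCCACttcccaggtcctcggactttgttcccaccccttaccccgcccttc
Abca1 (chr4:53159903-53160007, minus strand): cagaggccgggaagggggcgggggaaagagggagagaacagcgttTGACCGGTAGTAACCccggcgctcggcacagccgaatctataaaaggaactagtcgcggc
Srebf1 (chr11:60210594-60210698, minus strand): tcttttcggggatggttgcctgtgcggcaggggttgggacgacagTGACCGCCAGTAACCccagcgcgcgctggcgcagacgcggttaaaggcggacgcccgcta
Fasn (chr11:120824713-120824797, minus strand): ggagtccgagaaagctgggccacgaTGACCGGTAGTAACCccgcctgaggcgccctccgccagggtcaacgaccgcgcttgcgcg
The repeat lies 53 to 67 bases before the start of Abca1, 168 to 182 before one of the 3 starts of Srebf1 and 211 to 225 before that of Fasn, and its 15 letters are identical in Abca1 and Fasn. The genes that hold it did not share a direction, with log2 fold changes of -1.22 for Abca1, -0.60 for Srebf1 and 1.80 for Fasn.

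The classes were then set against each other within each library. The 20 SREBP targets together drew 1816 and 3588 reads in WT and 6396 and 5845 in KO. The 10 LXR and PPAR genes drew 17163 and 9015 against 5249 and 15799. The log2 ratio was -3.24 and -1.33 in WT and 0.29 and -1.43 in KO, a difference of means of 1.71, which became 0.75 without WT 1, 2.67 without WT 2, 0.85 without KO 1 and 2.57 without KO 2. The groups overlapped, because KO 2 lay just below WT 2. Plin2 alone gave 10720 of the LXR and PPAR counts of KO 2. With Plin2 and Fabp5 left out on one side and Scd2 and Acly on the other, the ratio was -1.48 and -0.33 in WT and 1.28 and 0.081 in KO, and with the mean of log2 normalized CPM plus 1 in place of summed counts it was -3.52 and -2.01 against -0.23 and -1.41, both without overlap. The ratio was not tested. With 2 libraries in each group the smallest p of an exact permutation test is 0.33.

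**Figure D3:**
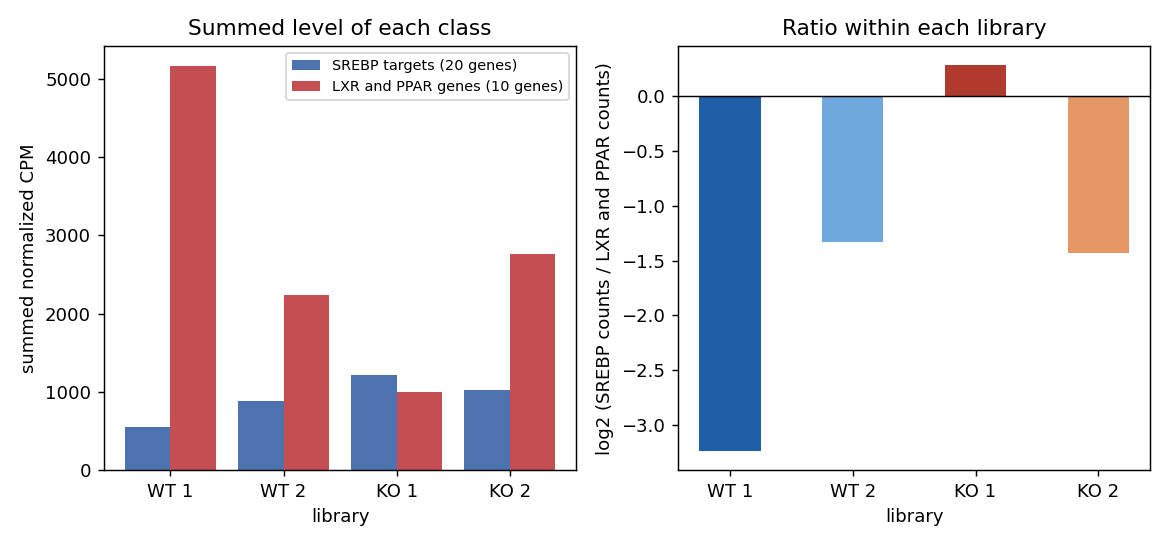
Left, summed normalized CPM of the SREBP targets and of the LXR and PPAR genes in each library. Right, the log2 ratio of their summed counts, which runs from -3.24 in WT 1 to 0.29 in KO 1, with WT 2 and KO 2 nearly equal at -1.33 and -1.43.

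No further gene of the same pathways passed the threshold of the edgeR test. Of 14 other SREBP pathway genes tested, 10 were positive with a median of 0.61, from -0.46 for Ebp, a sterol isomerase, to 1.83 for Me1, which supplies NADPH (log2 fold change 1.83, 95% interval -0.24 to 3.89, edgeR adjusted p = 0.417). Me1 had 0.601 and 2.72 normalized CPM in WT and 5.71 and 6.46 in KO. Of 8 other LXR pathway genes, 7 were negative with a median of -0.36, from -0.86 for Pltp, a phospholipid transfer protein and LXR target, to 0.086 for Smpdl3a. Pltp had 1083 and 1286 against 314 and 992, where KO 1 alone was far below the rest. Of 18 other genes of PPAR signaling and fatty acid handling, 11 were negative with a median of -0.29, from -1.22 for the receptor gene Ppard to 0.72 for Mgll, which breaks down monoglycerides. Ppara and Pdk4 had 0 counts in all 4 libraries.

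Marker lists were set beside both classes. The summed level of the SREBP targets was 546 and 889 normalized CPM in WT and 1217 and 1020.1 in KO. Beside it, all 15 cell cycle genes were positive, 0 of them past the threshold (summed level 395 and 764 in WT and 1587 and 1586 in KO). All 10 T cell markers were positive, 9 of them past the threshold (edgeR quasi-likelihood test), and all 8 melanoma markers, 1 of them past it, with summed levels of 273 and 282 in WT and 2041 and 1236 in KO. All 5 fibroblast or endothelium markers tested were positive, 3 of them past it, with 24.9 and 20.3 against 1257 and 191 and Dcn at 0 in both WT libraries. The endothelial genes of this list did not share the rise. Pecam1 overlapped between the groups with a log2 fold change of 0.18. Cdh5, which was not tested, had 1 and 6 counts in WT and 1 and 1 in KO. Of the 5 dendritic cell markers tested 4 were positive, with summed levels of 64.3 and 95.4 in WT and 214 and 94.6 in KO, and Flt3, Xcr1 and Siglech were at 0 in WT 1, Flt3 and Siglech also in KO 2. The part of these cells in the SREBP values was not tested. Set against the cell cycle genes, the SREBP sum was 1381 and 1163 CPM per 1000 cell cycle CPM in WT and 767 and 643 in KO, lower in both KO libraries. Per 1000 macrophage or monocyte CPM it was 16.8 and 22.7 in WT and 63.4 and 39.4 in KO, higher in both, so the direction turned with the list used. Fasn, per 1000 cell cycle CPM, was 47.1 and 73.3 in WT and 75.0 and 88.9 in KO, and lay higher in both KO libraries. Hmgcs1 with 41.8 and 36.6 against 58.4 and 21.0, Cyp51 with 28.9 and 72.3 against 83.4 and 39.8 and Idi1 with 0.760 and 6.16 against 12.2 and 5.61 overlapped between the groups. No other SREBP target was set against the cell cycle genes.

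The summed level of the LXR and PPAR genes was 5159 and 2233 normalized CPM in WT and 999 and 2757 in KO, with KO 2 above WT 2. Beside it, 9 of 13 macrophage or monocyte markers were negative, 0 of them past the threshold, with a median of -0.61 and no marker at 0. The summed levels of these markers, given above, did not overlap between the groups. Per 1000 CPM of these markers, Nr1h3 was 7.88 and 3.22 in WT and 0.714 and 2.34 in KO, Abcg1 was 9.75 and 5.58 against 3.57 and 4.21, Fabp4 was 1.06 and 0.228 against 0.169 and 0.101 and Ch25h was 0.945 and 1.28 against 0.198 and 0.754. These 4 of the 8 genes computed this way lay lower in both KO libraries. The sum of the 10 LXR and PPAR genes did not, with 159 and 57.0 in WT and 52.0 and 106 in KO. No share of all genes was computed on this scale, and Mylip, Lpl, Cpt1a and Soat1 were not set against these markers. Of the marker sum, Lyz2 alone gave 8828 and 14246 normalized CPM in WT and 12901 and 10278.5 in KO. Plin2 with 80.4 and 27.0 against 18.4 and 72.2, Abca1 with 3.90 and 2.02 against 1.06 and 2.63, Pparg with 0.889 and 1.43 against 0.902 and 0.701 and Fabp5 with 48.5 and 9.52 against 14.1 and 11.3 overlapped between the groups. Of 6 fat cell markers, Adipoq, Plin1, Cfd, Lep and Retn had 0 counts in every library and Cidec had 8, 1, 2 and 0, beside the Fabp4 and Lpl levels given above. The part of macrophage content in the LXR and PPAR values was not otherwise tested.

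**Figure D4:**
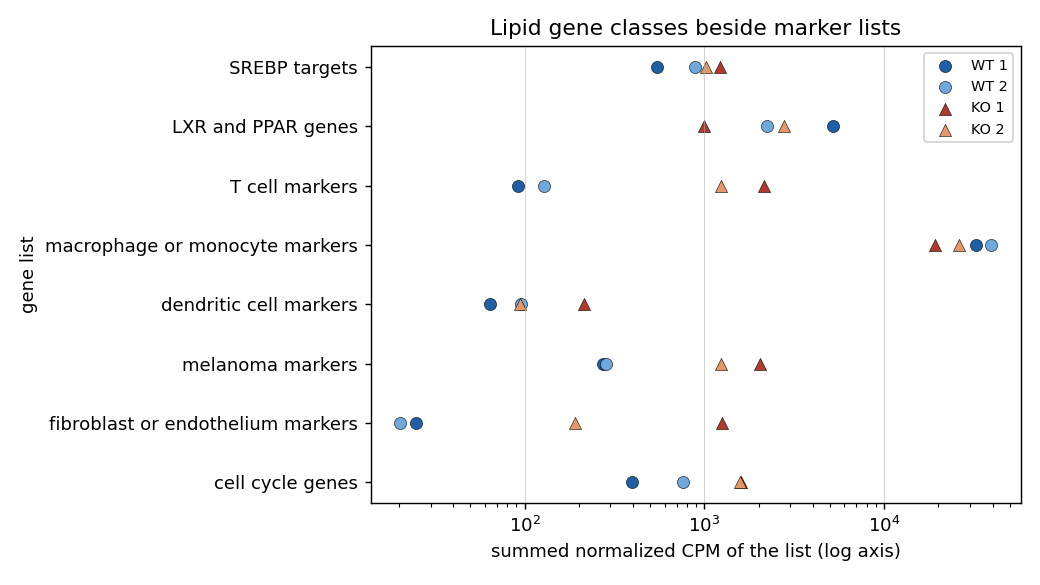
Summed normalized CPM (log axis) of the SREBP targets, the LXR and PPAR genes, 5 lists of cell type markers and the cell cycle genes in each library (circles WT, triangles KO). The T cell, melanoma, fibroblast or endothelium and cell cycle lists lie higher in both KO libraries and the macrophage or monocyte list lower. Within the fibroblast or endothelium list, Pecam1 overlapped between the groups and Cdh5 lay lower in KO.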

How the data were processed

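The authors deposited a table of raw read counts by gene for each library, which per the labels were made with HISAT2 2.1.0 on mm10 and HTSeq 0.11.0. The annotation, the strand setting and any trimming were not given in the sources used here. The 5 summary rows entered neither library sizes nor tests. Of all reads in a table, 20.5% to 28.8% lay on genes, 30.3% to 44.2% did not align, 22.3% to 29.5% fell outside counted features, 4.16% to 4.60% aligned more than once, 6.04% to 7.71% had low alignment quality and 0.830% to 1.09% were ambiguous, so near-identical copies such as Fabp5 and its pseudogenes may lose reads.

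The analysis used edgeR 4.0.16 in R 4.3.3: filterByExpr, TMM factors and the quasi-likelihood F-test (glmQLFit, glmQLFTest) of KO against WT with no covariate, fitted on all genes and adjusted by Benjamini-Hochberg over 11837 genes, two-sided, with a threshold of 0.05 and a prior count of 0.125. The SE was the log2 fold change divided by the square root of F. Alternatives were RLE and upper-quartile factors, no filter, DESeq2 1.42.0, a replicate block, a prior count of 2, other ways to sum the classes and each library left out, plus a crossed block added after seeing the data. When a library was left out, the lone library of its group was assumed to vary like the other group. Exon lengths, overlaps and positions came from GENCODE M21 (GRCm38, 1-based), promoters from RefSeq, and plots from matplotlib 3.10.9. The scripts were tested on simulated data. The members, lists and motif spellings were chosen with earlier results of these data known, and other spellings of the sterol element that were looked at are not reported. All 35 members were to be named, and of the other genes only those of fixed lists past the threshold or with the largest change in each direction. Satb1 and some further markers were named besides these.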

Additional observations from a re-analysis of the deposited data

How the results depend on the processing

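No member passed under RLE or upper-quartile factors, and all 33 signs held there and with a prior count of 2. The number past the threshold became 3 with every gene with a count tested (Fasn, Nr1h3 and Fabp4), 3 in DESeq2 and 1 (Nr1h3) with a replicate block, and it ranged from 0 to 6 when 1 library was left out, with 4 without WT 2 and 6 without KO 2. The deviations of same-numbered libraries from their group means had a weak negative correlation (-0.19 across genes), and the labels tie the numbers to no animal or batch. A crossed block of WT 1 with KO 2, chosen after seeing the data, called 8. With the replicate block the medians were 0.75 for the SREBP targets and -1.30 for the LXR and PPAR genes, close to those without it. With 1 library left out, the SREBP median lay between 0.39 and 1.15, the LXR and PPAR median between -1.94 and -0.66 and the difference of the log2 ratios between 0.75 and 2.67. The sign held under every alternative for 22 of 33 genes, including 14 of 18 SREBP targets and 6 of 10 LXR and PPAR genes. It changed for 11, only when 1 library was left out, and the cause was not tested: Pmvk ranged from -0.76 to 0.15 and turned without WT 2 or KO 2, Mvd ranged from -0.41 to 0.22 and turned without WT 2 or KO 2, Nsdhl ranged from -0.096 to 0.28 and turned without WT 1, Srebf2 ranged from -0.20 to 0.54 and turned without WT 1, Lpl ranged from -0.14 to 0.89 and turned without WT 1, Plin2 ranged from -2.41 to 0.047 and turned without WT 1 or KO 1, Insig1 ranged from -0.066 to 1.50 and turned without KO 1, Scap ranged from -0.28 to 0.054 and turned without KO 1, Cpt1a ranged from -0.92 to 0.10 and turned without KO 1, Soat1 ranged from -0.91 to 0.47 and turned without KO 1 and Mylip ranged from -1.66 to 0.52 and turned without KO 2. Values that missed the threshold do not show that expression was alike.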
